A study of Mus musculus with 6 samples.

Results

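The glutathione genes described here are Gss, Ggct, Gsr, Gpx1, Gpx3, Gpx4, Gsta4, Gstm1, Gsto1 and Mgst1, which encode enzymes that make, reduce and use glutathione. They were chosen by name and by function, with earlier results of these data known. All 10 are among the 24421 genes of the deposited table. RNA was taken from cultured, immortalized wild-type mouse proximal tubular epithelial cells (PTECs) after 6 hours with either bovine serum albumin (BSA, 3 libraries) or palmitic acid bound to BSA (PA, 3 libraries), so the albumin carrier was present in both groups. The comparison asks how PTECs respond to lipid overload. Whether replicate libraries derive from separate cultures or cell lines is stated neither in the labels nor in the methods, so the p-values below reflect only how far these libraries vary, which may be technical.

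Glutathione is a tripeptide of glutamate, cysteine and glycine, and it is the main small thiol of most cells. The glutathione peroxidases spend it to reduce hydrogen peroxide and lipid peroxides, and the glutathione transferases couple it to reactive compounds or use it in reductions. Glutathione reductase returns the oxidized form to the reduced form with NADPH. The proximal tubule is known for a high turnover of glutathione, which it breaks down at its brush border and makes again from the recovered amino acids.

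Values are RPKM, the reads of a gene scaled to its length and to the size of the library, so that levels of genes within a library can be set side by side. Between libraries RPKM adjusts for library size only, and counts under another scaling are given near the end. The libraries held 17679817 to 21568228 reads, as recovered from the RPKM values. Of the 10 genes, 9 reached the mean of 0.5 RPKM over the 6 libraries that was required for testing, and Mgst1 did not. Fold changes and p-values come from limma on log2(RPKM + 0.1), fitted over 11671 genes. Genes were called where the p adjusted by Benjamini-Hochberg was under 0.05.
As a check of the cell type, 6 of 8 renal epithelial markers but only 2 of 8 proximal tubule markers had a mean over 1 RPKM. Lrp2 (megalin) was at 7.11 RPKM with BSA and 6.25 with PA, whereas the transporter genes Slc34a1, Slc5a2 and Slc22a6 were at or near 0 in both groups. The summed level of the epithelial markers was 909 to 928 RPKM with BSA and 759 to 777 with PA, and the part of this shift in the results below was not tested. The keratin genes Krt8 (mean 489 RPKM with BSA, 407 with PA) and Krt18 (213 and 170) made up most of the sum. Cdh16 was at 107 and 95.8 RPKM and Pax8 at 56.8 and 53.3. The epithelial markers under 1 RPKM were Cdh1, at 0.0329 and 0.0575, and Epcam, at 0.245 and 0.176. Of the markers of other cells, 1 of 7 fibroblast, 1 of 5 immune, 0 of 5 endothelial and 0 of 6 podocyte or distal nephron genes had a mean over 1 RPKM. In bulk RNA, fewer cells that express a gene and less RNA of it per cell cannot be told apart.

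The glutathione genes differed little between PA- and BSA-treated PTECs. Gsta4, a transferase of the alpha class that conjugates 4-hydroxynonenal, a product of lipid peroxidation, was 1.24-fold higher with PA. It was the 1 gene of the 9 that was called higher, and 0 were called lower. Across all genes tested, 11.2% were called higher and 9.52% were called lower, so 1 of 9 is close to the background. At an unadjusted p under 0.05, 3 of the 9 genes were higher (Gsta4, Gsto1 and Gpx1) and 1 was lower (Gss). Of all 11671 genes tested, 1889 were higher and 2287 lower at that threshold. By limma voom on reads recovered from the RPKM values, 2 of the 9 were called higher (Gsta4 and Gsto1) and 0 lower. With voom, 1487 of all 11671 genes were called higher and 1415 lower. None of the 9 genes had an absolute log2 fold change over 0.4, the size that the study required of differentially expressed genes. Of all genes tested, 4.22% were called and higher by more than that and 2.06% called and lower. The median log2 fold change of the 9 genes was 0.07, beside −0.04 over all genes tested.

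**Figure D1:**
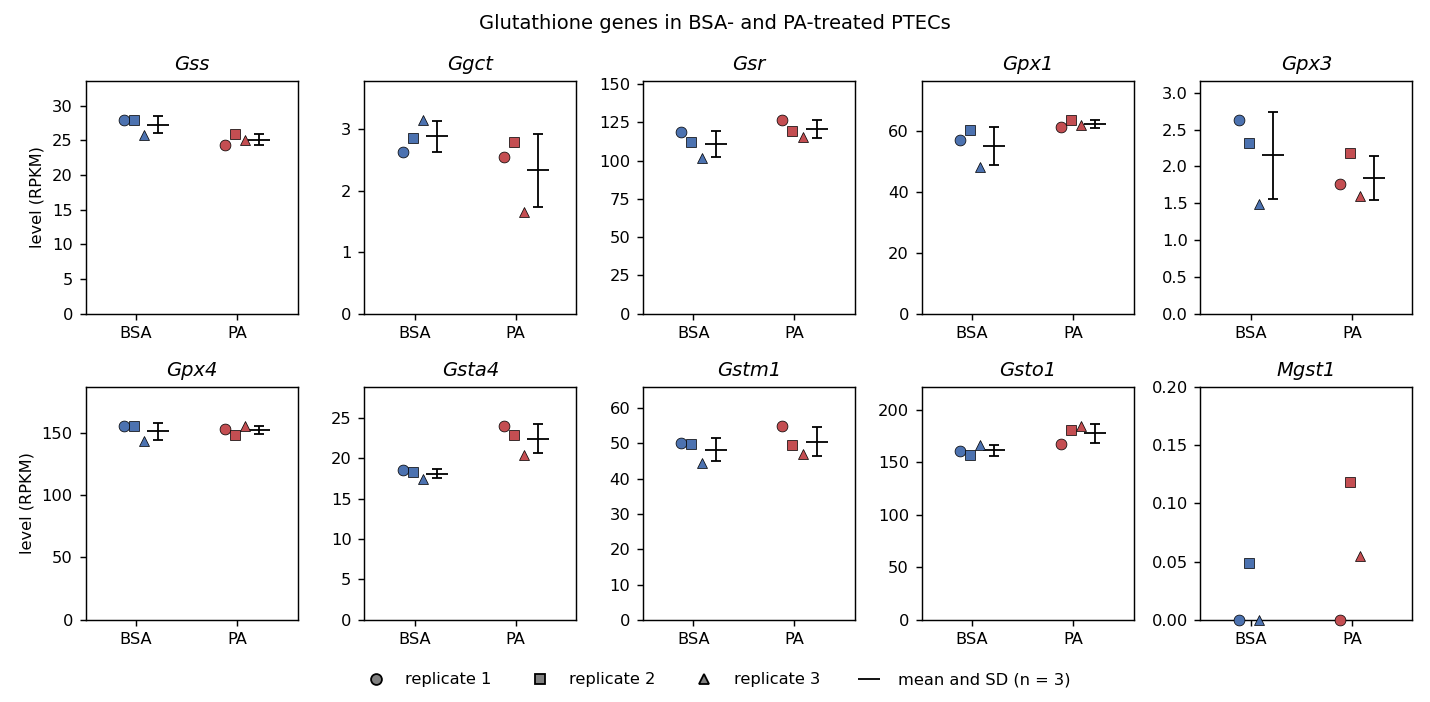
Level of each glutathione gene in RPKM (vertical axes, each from 0) in the 3 BSA-treated (blue) and 3 PA-treated (red) libraries, with the mean and SD of each group (not drawn for Mgst1, which had 0 to 2 reads per library). The PA libraries lay above all BSA libraries for Gsta4, Gpx1 and Gsto1, and the groups overlapped for the other 7 genes.

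The synthesis and breakdown of glutathione are represented by Gss and Ggct. Gss, on chromosome 2 from 155563181 to 155592810 (GRCm38, minus strand), encodes glutathione synthetase, which adds glycine in the final step. Its level was 28.0, 27.9 and 25.8 RPKM in BSA replicates 1, 2 and 3 and 24.3, 25.9 and 25.05 RPKM in PA replicates 1, 2 and 3. The groups overlapped, because BSA replicate 3 lay below PA replicate 2. The mean was 27.2 ± 1.23 with BSA and 25.1 ± 0.783 with PA (SD, n = 3 libraries each), a log2 fold change of −0.12 with a 95% confidence interval from −0.22 to −0.01 that did not pass the test (adjusted p = 0.11). Without BSA replicate 3 it passed, with a log2 fold change of −0.15 (adjusted p = 0.0256).
Ggct, on chromosome 6 from 54982580 to 54992950 (minus strand), encodes gamma-glutamylcyclotransferase, which splits gamma-glutamyl dipeptides and releases 5-oxoproline. Its level was low, at 2.64, 2.86 and 3.16 RPKM with BSA and 2.55, 2.797 and 1.66 with PA, from 22 to 42 reads per library. PA replicate 3 was the lowest library, and the other 2 PA libraries were close to the BSA libraries. On the log2 scale the difference was −0.32, with an interval from −0.75 to 0.10 (adjusted p = 0.247). Without PA replicate 3 it was −0.11.

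Gsr, on chromosome 8 from 33652523 to 33698163 (plus strand), encodes glutathione reductase. It was at 119, 112 and 102 RPKM in the BSA libraries and at 127, 119.6 and 115 RPKM in the PA libraries. The lowest PA library lay below the highest BSA library, so the groups overlapped. Its log2 fold change was 0.12 with an interval from −0.02 to 0.26 (adjusted p = 0.197), and it was 0.06 without BSA replicate 3.

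Of the glutathione peroxidases, Gpx4 and Gpx1 were abundant and Gpx3 was scarce. All 3 encode selenoproteins, whose active site holds selenocysteine. GPX4 reduces lipid hydroperoxides within membranes and is the enzyme whose loss leads to ferroptosis. Gpx4, on chromosome 10 from 80047166 to 80056439 (plus strand), was at 155, 155 and 144 RPKM with BSA and at 153, 149 and 155 RPKM with PA. The libraries of both groups were interleaved, and the means were 151 ± 6.77 and 152 ± 3.38 (SD, n = 3 libraries each). The log2 fold change was 0.01 (adjusted p = 0.887), and its interval from −0.08 to 0.10 was the narrowest of the 9 genes.
GPX1 is the main cytosolic peroxidase. Gpx1, on chromosome 9 from 108338903 to 108340343 (plus strand), was at 57.0, 60.3 and 48.2 RPKM with BSA and at 61.4, 63.8 and 62.0 with PA. Each PA library was above each BSA library, but the BSA libraries were spread more widely, mainly through replicate 3. The log2 fold change of 0.18 had an interval from 0.01 to 0.36 and did not pass (adjusted p = 0.127), and it was 0.09 without BSA replicate 3 (adjusted p = 0.103). After each library's GC trend was taken out it passed, at a log2 fold change of 0.19 (adjusted p = 0.0394).
GPX3 is the secreted peroxidase of plasma, which the kidney is known to supply. Gpx3, on chromosome 11 from 54902453 to 54910377 (plus strand), was at 2.63, 2.32 and 1.49 RPKM with BSA and at 1.76, 2.18 and 1.59 with PA, from 40 to 80 reads per library. BSA replicate 3 was the lowest of all 6 libraries. The log2 fold change of −0.18 had an interval from −0.68 to 0.31 (adjusted p = 0.572), so neither a rise nor a fall of that size was resolved at this depth. Omitting BSA replicate 3 gave −0.42 for Gpx3, and omitting BSA replicate 1 gave −0.02.

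The 4 transferases belong to separate classes. Gsta4, on chromosome 9 from 78182774 to 78209349 (plus strand), was at 18.5, 18.2 and 17.5 RPKM with BSA and at 23.99, 22.9 and 20.4 RPKM with PA. The PA libraries lay above all BSA libraries, with PA replicate 3 nearest to them. The mean was 18.1 ± 0.535 RPKM with BSA and rose to 22.4 ± 1.84 with PA (SD, n = 3 libraries each). This was a log2 fold change of 0.31 with a standard error of 0.06 and an interval from 0.16 to 0.45 (adjusted p = 0.013). The call was lost without PA replicate 2, where the log2 fold change was 0.29 (adjusted p = 0.058).
Gsto1, on chromosome 19 from 47854970 to 47864790 (plus strand), encodes the omega transferase, which has a cysteine in its active site and acts in reductions such as that of dehydroascorbate. It was at 160.3, 157 and 166.8 RPKM with BSA and at 167.3, 181 and 184 RPKM with PA. The groups did not overlap, but PA replicate 1 was barely above BSA replicate 3. The log2 fold change of 0.14 had an interval from 0.04 to 0.24 and missed the threshold (adjusted p = 0.061). It passed without BSA replicate 3 (adjusted p = 0.0312) and without PA replicate 1 (adjusted p = 0.0277).
Gstm1, on chromosome 3 from 108012255 to 108017973 (minus strand), encodes a transferase of the mu class. It was at 50.2, 49.9 and 44.4 RPKM with BSA and at 54.97, 49.5 and 46.9 RPKM with PA. The groups overlapped, and the log2 fold change was 0.07 with an interval from −0.09 to 0.23 (adjusted p = 0.532). It was 0.003 without PA replicate 1, 0.008 without BSA replicate 3 and 0.12 without PA replicate 3. The genes of the alpha and mu classes are closely related in sequence, and the sources used here do not give how reads that match several of them were counted. The levels of single members are therefore uncertain.
Mgst1, on chromosome 6 from 138140316 to 138156755 (plus strand), encodes a membrane-bound transferase of the endoplasmic reticulum and mitochondria that is abundant in liver. In these PTECs it had 0, 1 and 0 reads with BSA and 0, 2 and 1 reads with PA, at most 0.119 RPKM. It was therefore not tested, and no difference was detectable at this depth.

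**Figure D2:**
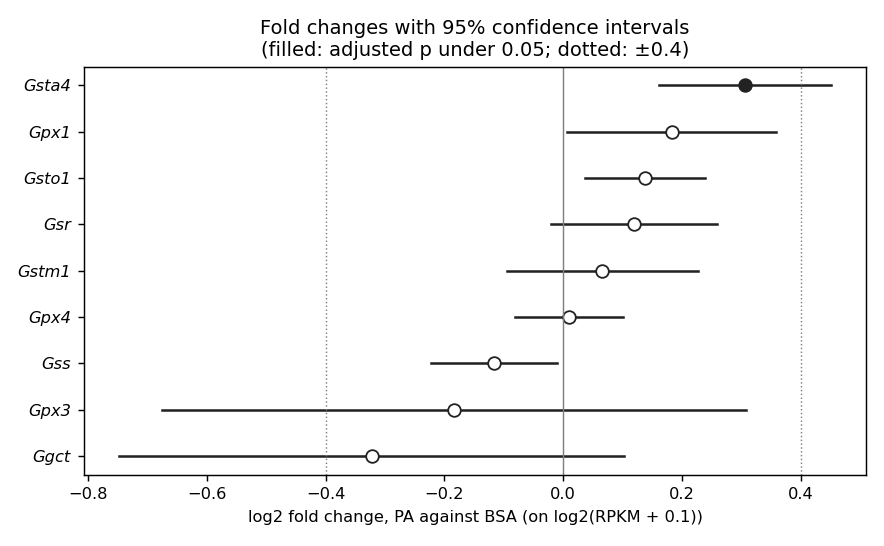
Log2 fold change (horizontal axis, PA against BSA) of the 9 tested glutathione genes with 95% confidence intervals from limma, where a filled point marks an adjusted p under 0.05 and dotted lines mark ±0.4. Gsta4 at 0.31 is the filled point, and the intervals of the low genes Gpx3 and Ggct are the widest.

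Across genes, the order of levels was the same in all 6 libraries. In BSA-treated PTECs the mean fell from Gsto1 at 161 RPKM through Gpx4 at 151, Gsr at 111, Gpx1 at 55.2, Gstm1 at 48.2, Gss at 27.2 and Gsta4 at 18.1 to Ggct at 2.89, Gpx3 at 2.15 and Mgst1 at 0.0164 RPKM. The ranges of neighbours overlapped for Gpx1 and Gstm1 with BSA and for Ggct and Gpx3 with PA. BSA replicate 3 had the lowest level within its group in 7 of the 9 tested genes, all but Gsto1 and Ggct. It was also the lowest BSA library in 49.7% of all genes tested. Its deviations fell by 0.08 on the log2 scale for each 10 points of GC content, while the other 5 libraries had slopes from −0.003 to 0.05. The 10 glutathione genes had transcript GC contents from 45.8% (Ggct) to 58.3% (Gpx4), around a median of 50.3% for the genes tested. In all genes tested the PA libraries lay above the BSA libraries in 18.2% and below them in 22.3%, against 3 and 0 of the 9 glutathione genes.

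The whole families show which members carry most of the transcript. Of 8 glutathione peroxidase genes, Gpx4 made up 64.4 ± 1.23% of the summed RPKM with BSA and 62.2 ± 1.06% with PA, and Gpx1 23.4 ± 1.30% and 25.5 ± 0.598% (SD, n = 3 libraries each). Gpx8, which encodes a peroxidase of the endoplasmic reticulum without selenocysteine, followed at 11.2% and 11.6%, and Gpx3 at 0.907% and 0.754%. Gpx2 and Gpx6 were at 0 in all 6 libraries, and Gpx5 and Gpx7 were at or below 0.0923 RPKM. The summed peroxidase level was 240.3, 246 and 219 RPKM in the BSA libraries and 244, 244 and 247 RPKM in the PA libraries, so BSA replicate 3 stood apart and the groups overlapped.
Of 24 transferase genes, Gsto1 made up 37.4 ± 2.802% with BSA and 38.8 ± 2.34% with PA. Gstp1, which encodes the pi transferase, made up 31.9 ± 1.49% and 31.8 ± 0.368%, and Gstm1 11.1 ± 0.284% and 11.01 ± 0.804%. Gsta4 had a share of 4.19 ± 0.0622% with BSA and 4.89 ± 0.383% with PA. The summed transferase level was 445, 440.3 and 410.4 RPKM with BSA and 464, 453 and 458 RPKM with PA. Here each PA library was above each BSA library, and BSA replicate 3 was again the lowest. No test was made of these sums and shares, which include the genes described above.

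**Figure D3:**
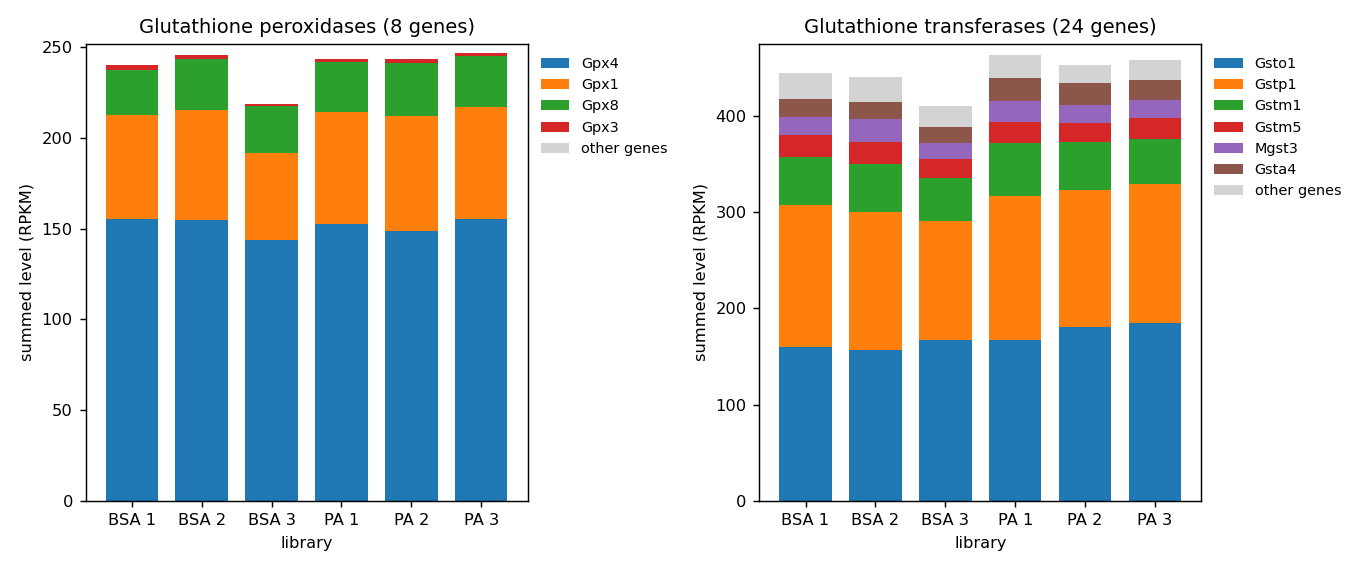
Summed RPKM (vertical axes, from 0) of 8 glutathione peroxidase genes (left) and 24 glutathione transferase genes (right) in each of the 6 libraries, with the most abundant genes in color. Gpx4 and Gpx1 carry most of the peroxidase level and Gsto1 and Gstp1 most of the transferase level in every library.

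No other tested member of either family was called. Of 5 further peroxidase genes only Gpx8 was tested, at 26.4 ± 1.43 RPKM with BSA and 28.3 ± 0.665 with PA (adjusted p = 0.156). Of 24 further transferases and related enzymes, 11 were tested, of which 0 rose and 0 fell with limma or with limma voom, and 0 were higher and 1 was lower at an unadjusted p under 0.05. Their median log2 fold change was −0.20. Of all genes tested, 11.2% were called higher and 9.52% lower with limma. Gstp1, at 138 ± 12.3 RPKM with BSA and 146 ± 3.47 with PA, had a log2 fold change of 0.08 (adjusted p = 0.368), and Gstm5, of the mu class, −0.06 (adjusted p = 0.569).
Gsta1, an alpha transferase below the expression minimum, was named after its values were seen. It had 2, 5 and 1 reads in the BSA libraries and 10, 12 and 8 reads in the PA libraries, with mean levels of 0.150 and 0.611 RPKM. When all genes with any read were tested it was called (adjusted p = 0.0306).

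Of 8 genes of glutathione synthesis and cysteine supply, 7 were tested, of which 4 rose, 1 fell and 2 missed the threshold. The shares called over all genes tested were 11.2% higher and 9.52% lower. Their median log2 fold change was −0.04, and that of the 7 synthesis and supply genes was 0.29. Like the other lists, this list was chosen with earlier results of these data known. Slc7a11 and Slc3a2, which form the cystine-glutamate exchanger, were both higher. Slc7a11 went from 0.534 ± 0.0386 to 3.02 ± 0.177 RPKM (adjusted p = 2.1e-05) and Slc3a2 from 71.9 ± 0.724 to 144 ± 4.58 RPKM (adjusted p = 6.5e-06). Gclm, the modifier subunit of glutamate-cysteine ligase, which makes the first bond of glutathione, rose 1.26-fold, from 44.2 ± 2.67 to 55.7 ± 1.63 RPKM (adjusted p = 0.00311). Gclc, the catalytic subunit, was 1.22-fold higher (adjusted p = 0.026) and was named after its values were seen. Mpst, which encodes mercaptopyruvate sulfurtransferase, fell 1.25-fold (adjusted p = 0.0439), a call that was lost in 5 of the 6 fits without 1 library.
Of 13 genes of glutathione breakdown and recycling, 7 were tested, 1 rose, 2 fell and 4 did not pass. The shares of all genes tested were 11.2% higher and 9.52% lower. Chac1, which encodes a cyclotransferase that cleaves glutathione in the cytosol, rose from 9.33 ± 0.986 to 21.96 ± 1.22 RPKM, 2.35-fold (adjusted p = 4.7e-05). Ggt6, of the gamma-glutamyltransferase family, was lower, at 1.45 ± 0.146 RPKM with BSA and 0.866 ± 0.0629 with PA (adjusted p = 0.0151), and Ggact, a gamma-glutamylamine cyclotransferase gene, 1.19-fold lower (adjusted p = 0.028). Ggt1, the gamma-glutamyltransferase that marks the brush border of the proximal tubule, had 0 to 8 reads per library and was named after its values were seen.

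**Figure D4:**
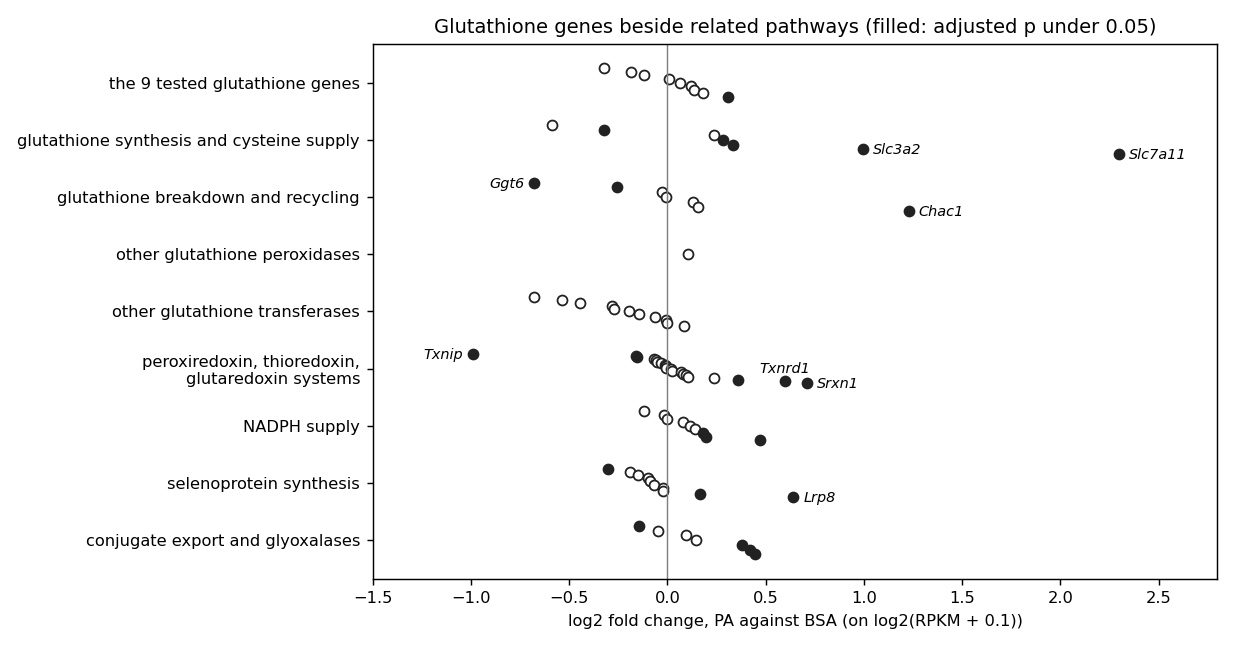
Log2 fold change (horizontal axis, PA against BSA) of each tested gene in the glutathione group and in 8 related lists, 1 point per gene, filled where the adjusted p from limma was under 0.05. The tested glutathione genes lie between −0.32 and 0.31, whereas Slc7a11 reaches 2.301 and Chac1 1.23.

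Of 20 genes of the peroxiredoxin, thioredoxin and glutaredoxin systems with catalase and the superoxide dismutases, all were tested, 3 rose, 2 fell and 15 did not pass, shares close to the 11.2% higher and 9.52% lower of all genes tested. Srxn1, the sulfiredoxin gene that repairs peroxiredoxins, was 1.64-fold higher, Txnrd1, the cytosolic thioredoxin reductase gene, 1.51-fold and Cat, the catalase gene, 1.28-fold (adjusted p = 1.9e-04, 2.0e-05 and 0.0094). Txnip, which encodes an inhibitor of thioredoxin, was 1.98-fold lower (adjusted p = 4.7e-04), and Prdx2, a peroxiredoxin gene named after its values were seen, 1.11-fold lower (adjusted p = 0.00883). Over the 20 genes the median log2 fold change was 0.01.
NADPH is the electron donor of glutathione reductase. Of 9 genes of its supply, all were tested, 3 rose, 0 fell and 6 did not pass (with limma voom 4 rose and 0 fell, and at an unadjusted p under 0.05 4 were higher and 1 was lower). The 3 called higher with limma were Pgd, G6pdx and Taldo1 of the pentose phosphate pathway, at 1.39-fold, 1.13-fold and 1.14-fold (adjusted p = 1.1e-04, 0.00888 and 0.0101). Of all genes tested, 11.2% were called higher and 9.52% lower with limma.
The peroxidases GPX1, GPX3 and GPX4 need selenocysteine. Of 11 genes of selenoprotein synthesis and selenium uptake, 10 were tested, of which 2 rose, 1 fell and 7 missed the threshold, beside 11.2% higher and 9.52% lower of all genes tested. Their median log2 fold change was −0.08. With 1 library left out, 1 to 2 were called higher and 0 to 3 lower. Lrp8, which encodes a receptor for selenoprotein P, was 1.56-fold higher (adjusted p = 1.6e-04), and Sephs2, the selenophosphate synthetase gene, 1.12-fold (adjusted p = 0.0438). Pstk, which encodes the kinase that prepares seryl-tRNA for selenocysteine synthesis, was 1.23-fold lower (adjusted p = 0.0267).
Of 9 genes of conjugate export and the glyoxalase route, 7 were tested, 3 rose, 1 fell and 3 did not pass. Among all genes tested, 11.2% were called higher and 9.52% lower. Abcc1 and Abcc4, exporters of organic anions and conjugates, were 1.36-fold and 1.34-fold higher, and Esd, the S-formylglutathione hydrolase gene, 1.30-fold (adjusted p = 8.6e-05, 3.8e-04 and 3.0e-04). Glo1, the glyoxalase I gene, was 1.11-fold lower (adjusted p = 0.014). Abcc2, another conjugate exporter, was below the expression minimum and was named after its values were seen. It had 26, 17 and 12 reads with BSA and 72, 72 and 82 reads with PA (adjusted p = 0.00552 when all genes with any read were tested).

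The promoters of the glutathione genes were searched for short motifs of regulators of antioxidant, lysosomal and stress genes. RefSeq windows (GRCm38.p6, 250 bases before to 50 after a start site) were at hand for 8 of the 10 genes, in 13 windows, and Gsr and Gsta4 were not searched. The antioxidant response element core TGACNNNGC, on either strand, was found in 2 of the 13 windows and in 12.4% of all 32851 windows. The E-box CACGTG at the center of the CLEAR element was found in 0 of 13 and in 7.15% of all windows, and TGATGNAA, the core of the element bound by ATF4 with C/EBP factors, in 0 of 13 and in 3.97%. The matches lie in windows of Ggct, which was tested and not called, and of Mgst1, which was too low to be tested. Along with Gpx3, these genes had the lowest levels of the 10. The stretches around the upstream matches are shown because no other window of these 8 genes held a match, with the match in capitals, which here is the reverse complement of the motif. The Ggct stretch is chr6:54993013-54993061 (minus strand, first base of the match 174 bases before the RefSeq start site) and the Mgst1 stretch chr6:138140451-138140499 (plus strand, 56 bases before). For both genes the RefSeq start site differs from the start in the gene spans given above, which are from GENCODE vM21. The Mgst1 stretch is upstream of its RefSeq start site but lies inside the GENCODE span from 138140316 to 138156755. A further match in the Ggct window lies after the start site.
Ggct: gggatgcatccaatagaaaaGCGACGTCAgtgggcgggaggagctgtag
Mgst1: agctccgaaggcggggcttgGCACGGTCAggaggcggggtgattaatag
A match is a description of the letters and not a sign of binding.

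The alternatives were other processing settings and the omission of each library in turn. In the plot of adjusted p-values by alternative, Gsta4 passed in 15 of 16 alternatives and Gsto1 in 5 of 16, while Gpx1 (GC trend removed), Gss (without BSA replicate 3) and Gsr (replicate number as a block) passed in 1 each. Of the 5 settings in which Gsto1 passed, 2 left out a library.

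**Figure D5:**
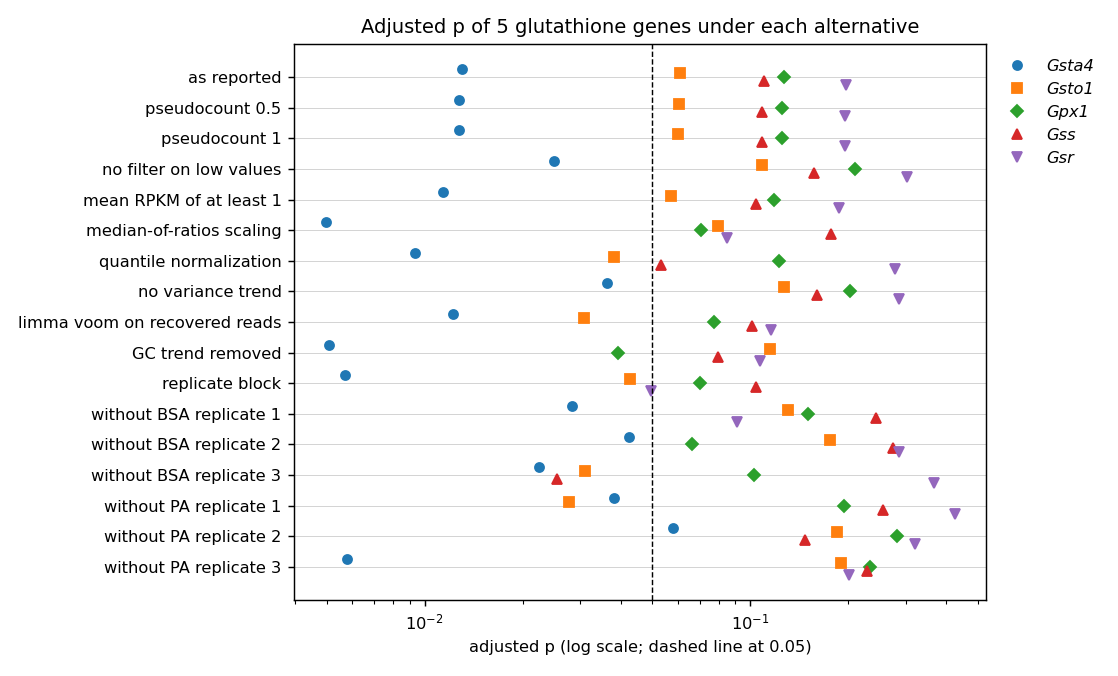
Adjusted p from limma (horizontal axis, log scale) of Gsta4, Gsto1, Gpx1, Gss and Gsr as reported and under 16 alternatives (rows), with a dashed line at 0.05. Gsta4 crosses the line without PA replicate 2. Gsto1 lies below the line in 5 of the 16 alternatives and above it in 11, with adjusted p from 0.0277 to 0.19.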

How the data were processed

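The authors ran bcl2fastq for base calls, aligned the reads to GRCm38 with TopHat 2.1.1 (as in the submitters' processing notes, which name mm10) and Bowtie2, and deposited RPKM values per gene and library. The sources used here do not give the read counter, the annotation or the strand setting. Besides RPKM, the deposited table holds the fold change, p-value, adjusted p and rank of the authors' own edgeR test, which were not used. Columns were matched to samples by the initial of the treatment and the replicate number.

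RPKM values were whole multiples of 1 read within a tolerance of 1e-06 reads in 100% of genes with a value above 0. Library sizes follow from these steps and GENCODE vM21 gene lengths. Recovered reads use the smallest whole length that fits and make up 99.4% of each library size. They enter limma voom and the read numbers of low genes.

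The main test was limma 3.58.1 in R 4.3.3 (lmFit, eBayes with a variance trend) on log2(RPKM + 0.1), on which changes of low genes are understated. Treatment was the single term of the model. Alternatives were other pseudocounts, filters, scalings, no variance trend, voom, removal of a GC trend, a replicate block and leaving out each library. The fit was tested on simulated data. Replicate libraries differed beyond counting noise (chi-square per degree of freedom 1.83 to 7.77), and none was treated as a duplicate.

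The members and lists were chosen with earlier results of these data known. All 10 members are named. From each list, the text names up to 4 called genes with the largest change, or up to 2 with the highest level where none was called, and marks others.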

Additional observations from a re-analysis of the deposited data

How the results depend on the processing

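The count of glutathione genes called higher, 1 as reported, was 2 with quantile normalization, with limma voom and with the GC trend removed, and 0 to 2 with 1 library left out (0 without PA replicate 2). The count called lower, 0 as reported, was 0 to 1 with 1 library left out. Correlations of deviations between BSA and PA libraries of the same replicate number were 0.03, −0.04 and 0.09. Those of different numbers ran from −0.10 to 0.07. With 3 libraries per group, these values do not settle whether the libraries were paired. With a replicate block, 3 glutathione genes were called higher, Gsta4, Gsto1 and Gsr (adjusted p = 0.00568, 0.0428 and 0.0496).

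The log2 fold change of Gpx4 turned to −0.0284 without BSA replicate 3 and to −0.00495 without PA replicate 3, and lay between −0.0284 and 0.0291 with 1 library left out. That of Gstm5 turned to 0.00309 without PA replicate 2 and was −0.117 at its lowest. Neither was called in any alternative. Over all genes, 1302 were called higher and 1111 lower as reported. With 1 library left out the counts were 819 (without PA replicate 2) to 1364 and 391 (without PA replicate 2) to 1643 (without BSA replicate 3), and without a filter 739 were lower. With median-of-ratios scaling 1476 were higher and 794 lower, 65.0% higher against 54.0%. The cause was not tested.

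Among related genes, Mpst, Ggact and Sephs2 lost their calls in 7 of 16 alternatives each, Pstk in 6, and Ggt6 and Glo1 in 2 each. At 22 to 80 reads per library, Ggct and Gpx3 have wide intervals.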
